A study of Homo sapiens with 4 samples.

Results

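The SP100 family genes SP110, SP140, SP140L and SP100, and PML, were examined as sites of open chromatin. The peaks described are the ATAC-seq peaks that overlapped the gene body, or the 10 kb upstream of it, of any of the 5 genes. Of 250225 peaks in 4 lists, 47 met this rule, and they fell into 13 separate regions. The 4 SP genes lie side by side on chromosome 2 and were also taken as 1 locus of 380 kb, with 9 regions and 32 peaks. PML, on chromosome 15, held 4 regions and 15 peaks. A peak was present in all 4 lists at 9 of the 13 regions.

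PML nuclear bodies are spherical structures in the nucleus that PML protein builds as a shell, largely through modification with the small protein SUMO. SP100 is a constitutive resident of these bodies, and SP110, SP140 and SP140L are related chromatin readers that carry the same kinds of domains. Several of these genes are classical interferon targets. The DNA elements best known for the response to interferon-γ (IFN-γ) are gamma-activated sites (GAS) and interferon-stimulated response elements (ISRE), the latter bound by IRF proteins.

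Open chromatin had been mapped by ATAC-seq, which relies on a transposase that inserts adapters into accessible DNA, in HK1, an established human nasopharyngeal carcinoma line. The groups were WT cells left untreated (WT) or given IFN-γ (WT-IFN-γ), and FLI1 knockout cells likewise (sgFLI1, sgFLI1-IFN-γ). FLI1 encodes an ETS-family transcription factor, and the knockout had been made with a guide RNA. The study describes the exposure as lasting a day. The labels give no dose of IFN-γ, and do not say whether the knockout cells are a clone or a pool.

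Each group held 1 library, so replicate error is unknown and groups were not tested against each other. Values are tags stacked over a peak's summit (the pileup), and 95% intervals cover counting error only. Depth was 8.04 tags per kb of genome for WT against 8.84 for WT-IFN-γ, and 6.93 for sgFLI1 against 6.86 for sgFLI1-IFN-γ. Expression was not measured in these files, so the loss of FLI1 was not checked here. Pileups were divided by this depth before libraries were compared. A peak was called higher or lower where the 95% interval of that scaled ratio lay clear of 1, which compares 2 libraries and not 2 conditions. Of 10 squamous epithelial genes, 7, 7, 6 and 5 had a promoter peak in the same order of libraries. Of all 19970 protein-coding genes 66.6%, 67.7%, 67% and 66% had one. KRT8 had one in every list and KRT14, TP63 and GRHL2 in none. Of 9 leukocyte genes 4, 3, 2 and 2 had one. CD68 and CD14 were among them in every list, and CD3E, CD8A, CD4, MS4A1 and NKG7 in no list. Of 7 fibroblast and endothelial genes 3, 2, 2 and 4 had one, and COL1A1 was among them in every list. The part of these differences in the results below was not tested.

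The promoters of the SP genes carry a common stretch, shown here because at SP110, SP140L and SP100 it lies close to the peak summits described below. In each sequence, from RefSeq on GRCh38.p14 and read 5′ to 3′ towards the gene, capitals mark the letters AANNGAAA (a short IRF core) as read on the opposite strand. Matches that overlap are run together.
SP110: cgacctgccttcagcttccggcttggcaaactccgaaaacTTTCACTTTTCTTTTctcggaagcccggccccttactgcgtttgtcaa
SP140L: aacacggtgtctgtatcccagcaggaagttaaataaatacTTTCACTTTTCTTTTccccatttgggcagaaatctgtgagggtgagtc
SP100: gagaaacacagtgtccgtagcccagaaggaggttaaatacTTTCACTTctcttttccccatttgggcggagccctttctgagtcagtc
SP140: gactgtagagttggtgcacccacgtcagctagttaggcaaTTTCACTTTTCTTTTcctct
The stretches are at chr2:230219988-230220075 (minus strand) for SP110, chr2:230327066-230327153 (plus) for SP140L, chr2:230416097-230416184 (plus) for SP100 and chr2:230225686-230225745 (plus) for SP140.

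The capitals begin 51 bases before the SP110 transcription start site (TSS), 87 before that of SP140L, 64 before that of SP100 and 10 before that of SP140. The 8 letters TTTCACTT are common to all 4 promoters. SP110, SP140L and SP140 hold 2 overlapping matches and SP100 holds 1. Of the further RefSeq promoters, not shown, that of SP110 holds 2 and has no peak. That of SP100 holds no match and has a peak in each list. The short IRF core was added after these sequences had been seen, and 22.9% of 34943 RefSeq promoters of the same length (250 bases before to 50 after a TSS) hold it. The 10-letter ISRE core GAAANNGAAA, whose matches always contain the shorter core, is in 3.57% of those promoters and in none of these 4. The GAS letters TTCNNNGAA are in 7.66% of promoters and were found in that of SP110 alone among the 4, starting 38 bases before the TSS. The ETS letters CCGGAAGT, in 4.11% of promoters, were in none of the 4. Only these exact letters were sought, so other forms of ETS site were not counted. The windows of SP140L and SP100 are much alike, with 252 of 272 aligned bases identical (92.6%), a share that leaves out 56 gap positions. Their longest common run is 48 bases, also over the whole of both promoter peaks. The authors removed reads of low mapping quality, and the part of this likeness in the pileups of both genes was not tested.

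SP110 encodes a nuclear body protein linked to the innate response to mycobacteria. Its promoter peak (chr2:230219592-230220540) had its summit 17 to 28 bp upstream of the TSS in every library. The summit held 38 tags in WT against 82 in WT-IFN-γ, with 44 in sgFLI1 against 49 in sgFLI1-IFN-γ. WT-IFN-γ was the highest of the 4. Scaled for depth, the summit was 4.72 (3.34 to 6.49) in WT and 9.28 (7.38 to 11.5) in WT-IFN-γ, a ratio of 1.96 (1.32 to 2.97). In the knockout it was 6.35 (4.61 to 8.52) in sgFLI1 and 7.14 (5.28 to 9.44) in sgFLI1-IFN-γ, a ratio of 1.13 (0.734 to 1.73). The WT intervals do not overlap, and those of the knockout do.

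SP140L, a gene next to SP140 and close to it in sequence, had the weakest of the promoter peaks in WT (chr2:230326858-230327575). Its summit held 21 tags in WT against 59 in WT-IFN-γ, with 30 in sgFLI1 against 30 in sgFLI1-IFN-γ. The scaled summit was 2.61 (1.62 to 3.99) in WT and 6.68 (5.08 to 8.61) in WT-IFN-γ, so the ratio was 2.56 (1.53 to 4.43). This was the highest ratio among the 11 regions matched between WT and WT-IFN-γ. In the knockout the scaled summits of 4.33 (2.92 to 6.18) and 4.37 (2.95 to 6.24) gave a ratio of 1.01 (0.589 to 1.74). In WT cells the summit lay 1 bp inside the TSS, and in WT-IFN-γ it lay 77 bp upstream, within the stretch of capitals shown for this gene. In sgFLI1 it lay 5 bp upstream of the TSS, and in sgFLI1-IFN-γ it lay on the TSS.

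SP100, the founding member and a marker protein of the bodies, had a promoter peak (chr2:230415942-230416607) of 36 tags in WT against 72 in WT-IFN-γ, with 35 in sgFLI1 against 36 in sgFLI1-IFN-γ. The 3 libraries other than WT-IFN-γ differed by 1 tag. Scaled, the summit was 4.48 (3.14 to 6.20) in WT and 8.15 (6.38 to 10.3) in WT-IFN-γ, a ratio of 1.82 (1.20 to 2.80). In the knockout it was 5.05 (3.52 to 7.02) without and 5.25 (3.68 to 7.27) with IFN-γ, a ratio of 1.04 (0.634 to 1.71).

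**Figure D1:**
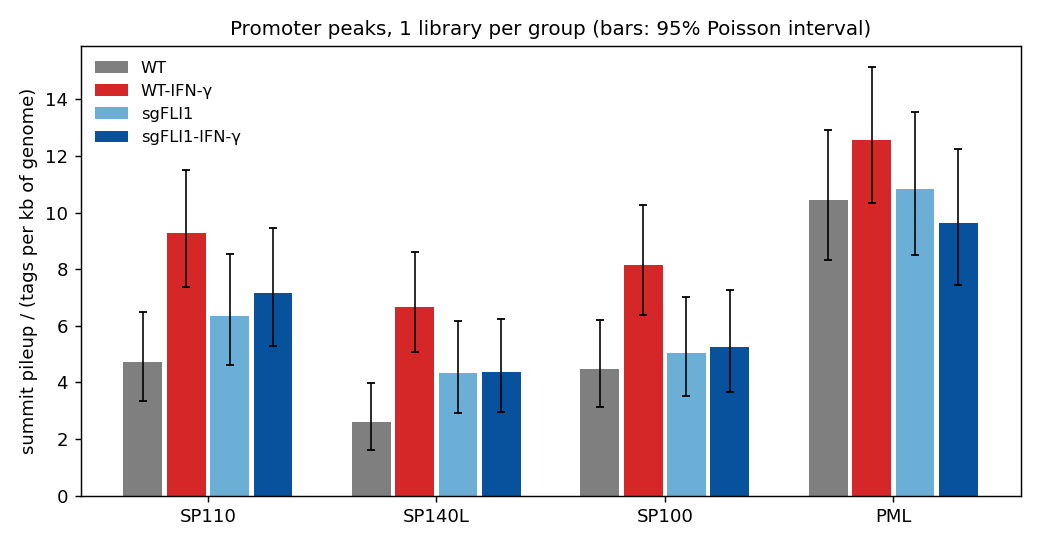
Height of the promoter peak (summit pileup divided by tags per kb of genome) at SP110, SP140L, SP100 and PML in the 4 libraries, 1 per group, with 95% Poisson intervals as error bars. WT-IFN-γ is the tallest bar at each gene, at 9.28, 6.68, 8.15 and 12.6, and its interval is clear of the WT interval at the 3 SP genes but not at PML.

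The 3 SP promoters with a peak were all higher in WT-IFN-γ than in WT. Of 16769 promoter peaks matched between these libraries 2.11% were higher, and of all 49258 matched peaks 3.91% were. Those promoter peaks had summits within 3 kb of any annotated protein-coding TSS, not the canonical one alone. By that wider rule the peaks in SP140L intron 2 and SP100 intron 15 are promoter peaks too, and neither was called higher. The 3 ratios stood at percentiles 99.3, 99.8 and 99.0 of the matched promoter peaks in the order SP110, SP140L, SP100. In the knockout, none of the 3 was higher, where 0.338% of 48175 matched peaks were. The median ratio over all matched peaks was 0.953 in WT and 0.910 in the knockout (a log2 shift of -0.14), so that divided by it the knockout ratios were 1.24, 1.11 and 1.14.

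Added over the 3 promoters, the summits held 95 tags in WT against 213 in WT-IFN-γ, with 109 in sgFLI1 against 115 in sgFLI1-IFN-γ. The scaled ratio with IFN-γ was 2.04 (1.60 to 2.63) in WT and 1.07 (0.813 to 1.40) in the knockout. The knockout ratio divided by the WT ratio was 0.522 (0.366 to 0.746). By gene it was 0.573 (0.327 to 1.00) at SP110, 0.395 (0.194 to 0.804) at SP140L and 0.571 (0.309 to 1.06) at SP100, and the interval includes 1 at SP110 and SP100 but not at SP140L. The WT and knockout ratios share no library. None of these quotients was divided by the medians over all matched peaks, 0.953 in WT and 0.910 in the knockout. The share of all matched peaks whose quotient has an interval clear of 1 was not counted. The quotients therefore have no background beside them.

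The genotypes were also compared within each treatment. Untreated, the summed SP promoters were 1.33 times as high (1.00 to 1.77) in sgFLI1 as in WT, and divided by the median of all matched peaks (1.03) the interval includes 1. With IFN-γ they were 0.696 times as high (0.550 to 0.877) in sgFLI1-IFN-γ as in WT-IFN-γ. Taken singly, 1 of 9 matched regions was lower in sgFLI1-IFN-γ, the SP100 promoter, at 0.644 (0.419 to 0.974), where 8.43% of 46911 matched peaks were lower. None of 12 matched regions was higher in sgFLI1 than in WT, where 9.77% of 45942 were. Among matched peaks within 5 Mb of the SP cluster, the median ratio of the genotypes lay 0.06 (untreated) and 0.11 (IFN-γ) above that of the genome on the log2 scale.

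**Figure D2:**
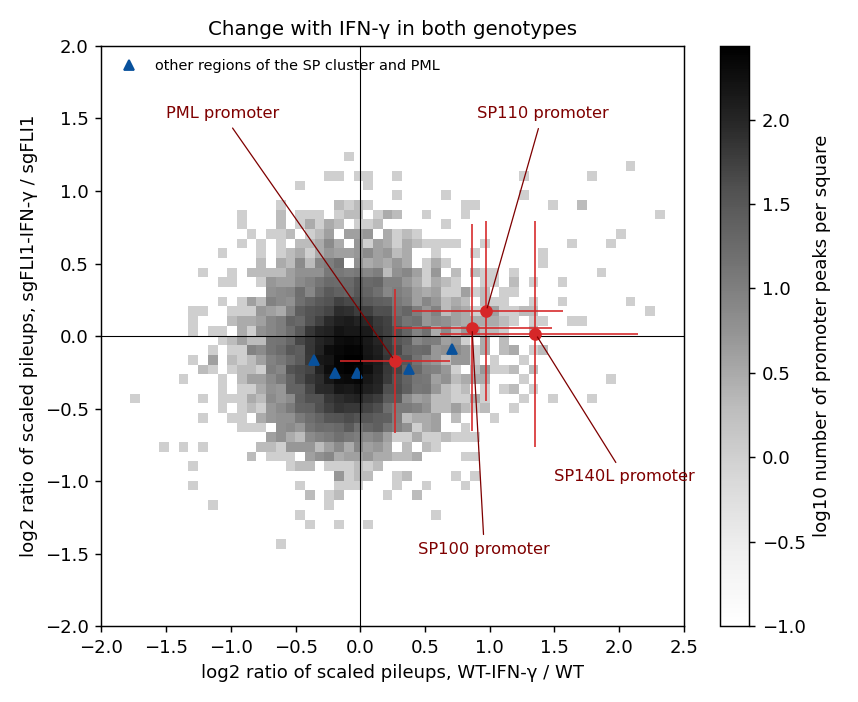
Change with IFN-γ in WT cells (x axis, log2 ratio of scaled pileups) against that in FLI1 knockout cells (y axis, the same), with red points and 95% counting intervals for the promoters of SP110, SP140L, SP100 and PML and blue triangles for their other regions matched in both pairs. The grey squares hold 14840 promoter peaks matched in all 4 libraries, and the 3 SP promoters lie at the right edge of them, at log2 ratios of 0.86 to 1.35 in WT and 0.02 to 0.17 in the knockout.

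SP140, a repressor expressed mostly in leukocytes, had no peak over its own TSS in any of the 4 libraries, although its promoter holds the common stretch. Of 19970 protein-coding genes, 28.1% had no summit within 3 kb of the canonical TSS in any list. An upstream TSS of SP110 in RefSeq, which faces that of SP140, had none either. The nearest peak inside the gene (chr2:230230182-230230651, intron 1) held 9 tags in sgFLI1 against 11 in sgFLI1-IFN-γ and was listed in neither WT library. A summit of 8 tags would have been listed there in both WT libraries. Scaling the strongest knockout summit to the depth of WT and WT-IFN-γ gives 12.9 and 14.2 tags, so a peak of that size was above the limit. Of all sgFLI1 peaks 25.3% had no counterpart in WT, and of all sgFLI1-IFN-γ peaks 19.8% had none in WT-IFN-γ. A second SP140 peak, in intron 18 (chr2:230289216-230289913), held 21 tags in WT, with 18 in sgFLI1 against 16 in sgFLI1-IFN-γ, and was absent from the WT-IFN-γ list. At the depth of WT-IFN-γ the WT summit would come to 23.1 tags, and 8 would have been listed. The SP110 promoter peak also lies inside the annotated SP140 gene body, though outside the canonical SP140 transcript, so it counts for both genes. With that peak, SP140 held 2 peaks in WT, 1 after IFN-γ in WT cells, and 3 in each knockout library.

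Away from the canonical promoters of SP110, SP140L and SP100, no matched region of the cluster had an IFN-γ interval clear of 1 in either genotype. An intron 2 peak of SP140L (chr2:230341927-230342707), the tallest of the cluster in sgFLI1, held 49 tags in WT against 47 in WT-IFN-γ, with 59 in sgFLI1 against 49 in sgFLI1-IFN-γ. Its ratio with IFN-γ was 0.873 (0.572 to 1.33) in WT and 0.839 (0.563 to 1.25) in the knockout. A region 3763 to 3819 bp upstream of SP140L (chr2:230323058-230323645) held 23 tags in WT against 30 in WT-IFN-γ, had 18 in sgFLI1, and was not listed in sgFLI1-IFN-γ. There, 12 tags would have been listed, and the WT-IFN-γ summit scaled to that depth comes to 23.3. In intron 15 of SP100 (chr2:230471739-230472928) a weak peak held 15 tags in WT against 27 in WT-IFN-γ, with 14 in sgFLI1 against 13 in sgFLI1-IFN-γ, and a WT ratio of 1.64 (0.841 to 3.31) beside 0.938 (0.406 to 2.15) in the knockout. Summed over the regions outside the 3 promoters that both libraries listed, the ratio with IFN-γ was 1.16 (0.925 to 1.47) over 4 regions in WT and 0.885 (0.692 to 1.13) over 5 in the knockout.

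A region between SP140L and SP100, 4204 to 4469 bp upstream of SP100 (chr2:230411273-230412308), is where the ISRE core was found within 100 bp of a summit. It held 49 tags in WT against 70 in WT-IFN-γ, with 45 in sgFLI1 against 38 in sgFLI1-IFN-γ. The ratio with IFN-γ was 1.30 (0.890 to 1.91) in WT and 0.853 (0.539 to 1.34) in the knockout, and both intervals include 1. The sequence is shown for its pair of overlapping ISRE cores, in capitals, read on the opposite strand (GRCh38, plus strand, chr2:230411876-230411951).
SP100 upstream: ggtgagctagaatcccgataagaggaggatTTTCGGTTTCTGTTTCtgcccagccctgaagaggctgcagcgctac
The summits of WT, WT-IFN-γ and sgFLI1 lay within 100 bp of this pair. That of sgFLI1-IFN-γ did not, though its peak spans the pair, which lay within 250 bp of the summit. Within 250 bp, the core was also found near the sgFLI1 summit in SP140 intron 1. Within 100 bp of a summit, the ISRE core was in 2.35% of all WT peaks, 5.60% of WT-IFN-γ peaks, 2.24% of sgFLI1 and 2.67% of sgFLI1-IFN-γ peaks. At the SP genes and PML it was in 1 of 12, 1 of 11, 1 of 13 and 0 of 11 peaks. The ETS letters were in 0 of these peaks in every list, against 1.28% to 1.42% of all peaks in a list.

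**Figure D3:**
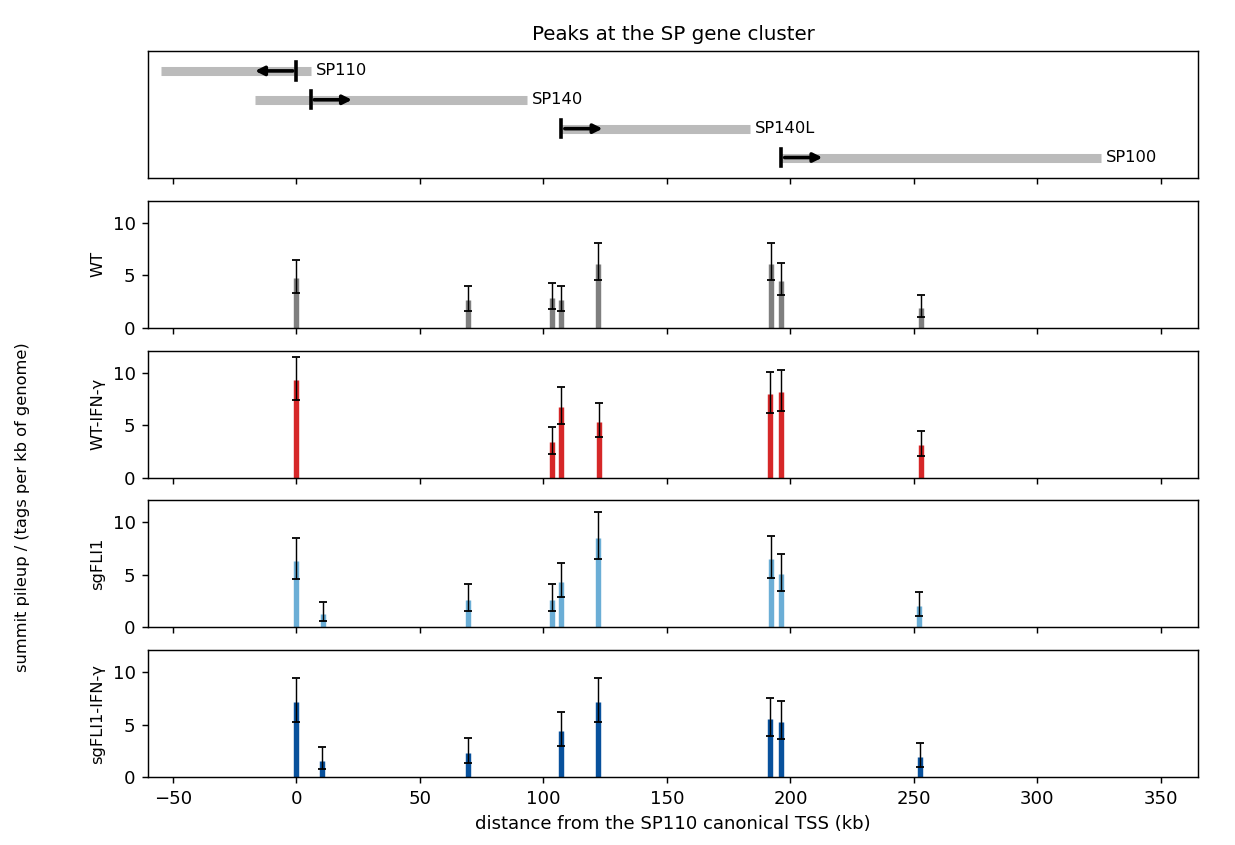
Summit heights (pileup divided by tags per kb of genome, 95% Poisson intervals as error bars) along the SP gene cluster in the 4 libraries, by distance in kb from the SP110 TSS, with gene bodies in grey and a tick and arrow at each canonical TSS. The peaks at the TSSs of SP110, SP140L and SP100 are tallest in WT-IFN-γ, the peak in SP140L intron 2 is not, and no peak stands at the TSS of SP140.

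PML, the scaffold of the bodies, had its promoter peak (chr15:73994344-73995341) at a TSS that faces the divergent gene STOML1. The summit held 84 tags in WT against 111 in WT-IFN-γ, with 75 in sgFLI1 against 66 in sgFLI1-IFN-γ. Scaled, this was 10.4 (8.33 to 12.9), 12.6 (10.3 to 15.1), 10.8 (8.51 to 13.6) and 9.62 (7.44 to 12.2), and all 4 intervals overlap. The ratio with IFN-γ was 1.20 (0.898 to 1.62) in WT and 0.889 (0.629 to 1.26) in the knockout, and neither was called. It was already the tallest promoter peak of the 5 genes in untreated WT cells.

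The second strong PML peak lay 2358 to 2447 bp upstream of the TSS (chr15:73991899-73992631), inside STOML1. It held 73 tags in WT against 79 in WT-IFN-γ, with 83 in sgFLI1 against 69 in sgFLI1-IFN-γ, with ratios of 0.985 (0.707 to 1.37) and 0.840 (0.601 to 1.17) with IFN-γ. Intron 7 held 2 weaker peaks. The first (chr15:74036729-74037153) held 21, 18, 17 and 15 tags in the same order. The other (chr15:74040010-74040968), which overlaps an antisense lncRNA, held 28 in WT against 20 in WT-IFN-γ, with 27 in sgFLI1. It was not listed in sgFLI1-IFN-γ, where 12 tags would have been and the sgFLI1 summit scaled to that depth comes to 26.7. Outside the gene, a peak 271 to 446 bp past its 3′ end held 23 tags in WT, 32 in WT-IFN-γ and 17 in sgFLI1-IFN-γ, and it is not counted among the 15.

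**Figure D4:**
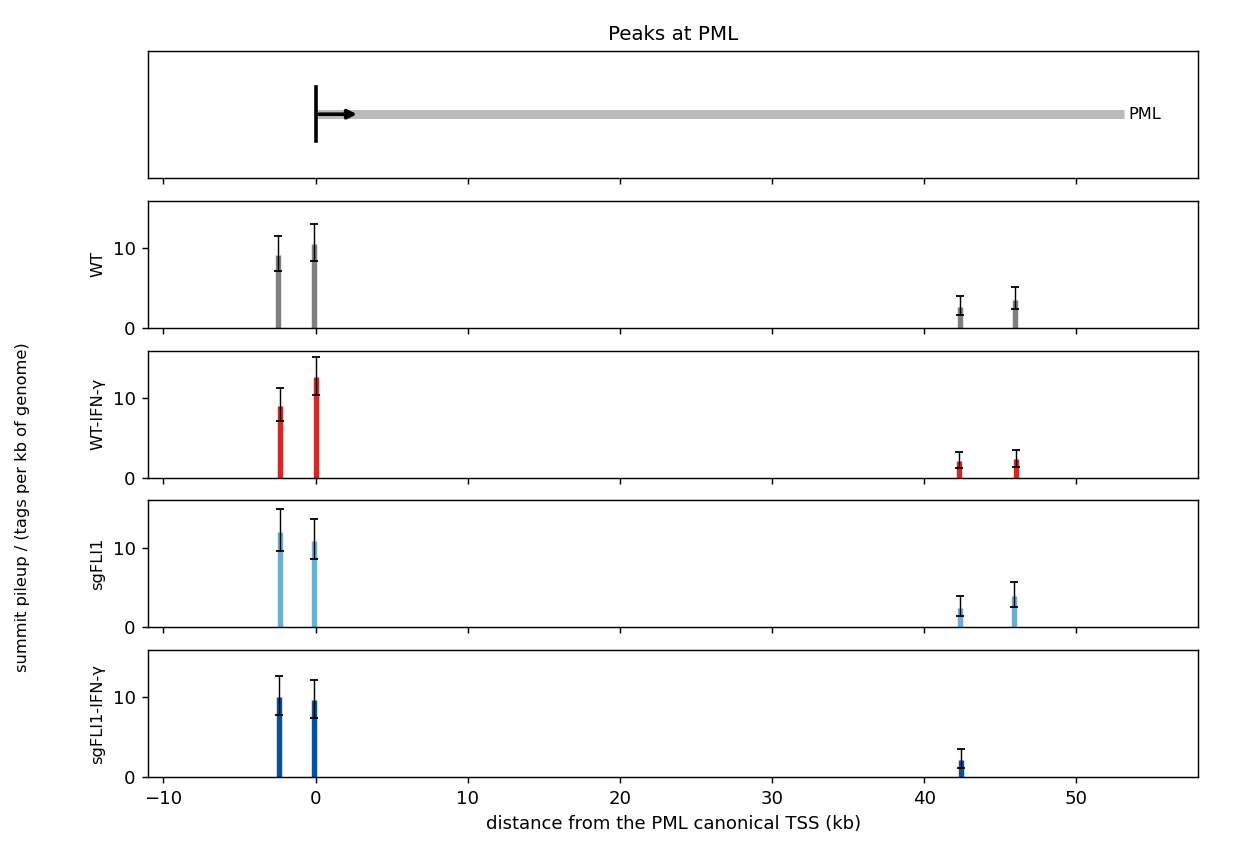
Summit heights (pileup divided by tags per kb of genome, 95% Poisson intervals as error bars) at PML in the 4 libraries, by distance in kb from its TSS. The upstream and promoter peaks stand between 8.94 and 12.6 in every library, and the second peak of intron 7 is missing from sgFLI1-IFN-γ.

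No region of the 5 genes was gained with IFN-γ, that is, listed after treatment and overlapping no peak of the untreated library. This held in WT cells, where 25.2% of all WT-IFN-γ peaks were gained, and in the knockout, where 18% of sgFLI1-IFN-γ peaks were. Over all protein-coding genes, 32% of 19970 had a gained region in WT. Lost regions were the SP140 intron 18 peak in WT, against 15.9% of all WT peaks, and in the knockout the SP140L upstream peak and the second intron 7 peak of PML, against 22.2% of sgFLI1 peaks. Both were also the member regions of WT-IFN-γ with no peak in sgFLI1-IFN-γ, which was so for 29% of WT-IFN-γ peaks. The 3 SP promoters had a peak in the untreated libraries too. With −log10 q of at least 10, however, 2 regions counted as gained in WT, the SP140L promoter and the SP100 intron 15 peak.

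Other clusters of IFN-γ targets of like kind are shown for contrast. The GBP cluster, genes of guanylate-binding proteins in 382 kb of chromosome 1, held 5 peaks in WT and 18 after IFN-γ, and 5 and 9 in the knockout. Of these, 14 were gained in WT and 5 in the knockout, where 25.2% of all WT-IFN-γ peaks and 18% of sgFLI1-IFN-γ peaks were gained. The IFIT cluster, 148 kb of chromosome 10, held 11, 14, 11 and 11 peaks, with 5 gained in WT and 2 in the knockout. The SP cluster, with 8, 7, 9 and 8 peaks, gained 0. Among matched peaks 4 of 4 were higher in WT-IFN-γ at the GBP cluster (median ratio 2.64). At the IFIT cluster 3 of 9 were (1.34) and at the SP cluster 3 of 7 (1.64), where 3.91% of all matched peaks were. In the knockout 0 were higher at each of the 3 clusters, a count close to the 0.338% of all matched peaks. The knockout median ratios were 1.255 (GBP), 0.968 (IFIT) and 0.974 (SP), beside 0.910 over all matched peaks.

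A list of 30 other genes whose products reside in or modify PML bodies was read beside the members. All 30 had a promoter peak in each library, as did 62.9% of 19970 protein-coding genes. In WT 0 of 30 were higher with IFN-γ and 1 was lower, SENP1, a SUMO protease, at 0.721 (0.559 to 0.928), a share close to the 3.5% of all matched promoter peaks that were lower. The median ratio was 0.975 (range 0.721 to 1.14), beside a median of 0.946 over all matched promoter peaks. In the knockout 0 were higher and 3 were lower, with a median of 0.923 beside 0.901 over all matched promoter peaks, of which 0.307% were higher and 6.29% lower. The 3, named after their values were seen, were the histone chaperone HIRA at 0.773, the nuclear body protein MORC3 at 0.734 and the SUMO ligase ZNF451 at 0.717. Relative to the median of all matched peaks in the knockout, 0 of the 30 were lower and 1 was higher, SENP6, a SUMO protease. Before that correction the SENP6 ratio was 1.24, with an interval that includes 1 (0.913 to 1.699). The share of all matched promoter peaks called after that correction was not counted, so these counts have no background beside them. DAXX, the partner of ATRX in depositing histone H3.3, had 156, 189, 162 and 146 tags, a WT ratio of 1.10 (0.887 to 1.37). ISG20, an interferon-stimulated exonuclease, had 98, 115, 78 and 67, a WT ratio of 1.07 (0.809 to 1.41).

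Of the 30 genes 8 (26.7%) had a region gained in WT, beside 32% of all protein-coding genes. By their strongest gained peak in WT-IFN-γ these were SUMO2 with 41 tags (29.4 to 55.6), TRIM69 with 51, USP7 with 20, HIPK2 with 17, SENP6 with 14, ISG20 with 17, ATRX with 12 and SIRT1 with 11. None of these 8 peaks lay within 3 kb of the gene's TSS. The gained peaks of SUMO2, HIPK2 and ISG20 had a counterpart in sgFLI1-IFN-γ, and those of the other five did not, where 74.1% of all 16999 regions gained in WT had none. Untreated sgFLI1 already had a peak at those of SUMO2, TRIM69, USP7, HIPK2 and ISG20. Within 1 Mb of the SP cluster 7 of 16 genes (43.8%) had a gained region in WT, led by CAB39 (28 tags), DNER (18), GPR55 (18) and TRIP12 (48). Within 1 Mb of PML 10 of 33 (30.3%) did, led by CYP11A1 (60 tags), MPI and FAM219B, which share 1 peak of 31 tags, and CD276 (24).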

How the data were processed

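ATAC-seq peak lists of 4 libraries were used, 1 per group as the labels give them. Per the study's methods and the submitters' processing notes, the authors used Trimmomatic for trimming, Bowtie2 2.3.4.1 for alignment to GRCh38, filters on mapping quality and duplicates, and MACS2 2.1.2 for peak calling. The methods also describe keeping peaks that passed a reproducibility filter (IDR). Whether the deposited lists are from before or after it, and from 1 or pooled replicates, is not given in the sources used here. The deposited lists give for each peak a score, a fold enrichment (a ratio), a −log10 p and a −log10 q as the authors' caller wrote them. The largest q was 0.0499.

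Pileup and local background were recovered from the fold and −log10 p, within 0.001, for 100% of peaks in each list. Depth is the lowest background of a list divided by its shortest peak (274, 249, 259 and 255 bp), taken as the tag extension length. Peaks overlapping by 1 bp were shared, and those overlapping one to one were matched. Intervals were exact Poisson for pileups, exact conditional for ratios and normal on the log scale for ratios of ratios. Motifs were sought on both strands. Genes came from GENCODE 44. Alternatives were stricter −log10 q limits, other windows, overlaps, list sizes and scalings.

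The members and gene lists were chosen with earlier results of these data known. Named genes were the 5 members, up to 8 of the 30 PML body genes and up to 4 neighbours per locus by −log10 q of a region gained in WT. A rule naming genes most like a member applied to none. One of the marker genes is not reported here. Steps were tested on simulated data. Computations ran in Python 3.11.15 (scipy 1.17.1, numpy 2.4.6, pandas 2.3.3).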

Additional observations from a re-analysis of the deposited data

Results flagged for a closer look

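At 3 regions the scaled summit moved in opposite directions with IFN-γ in the 2 genotypes. The ratio was 1.20 in WT and 0.889 in the knockout at the PML promoter, 1.30 and 0.853 at the region upstream of SP100, and 1.64 and 0.938 in intron 15 of SP100. With 1 library per group these differences were not tested, and the counting interval of each of the 6 ratios includes 1. Divided by the median ratio of all matched peaks, the knockout ratio in intron 15 became 1.03 and no longer differed in direction from WT (1.72), while those of the PML promoter (0.978) and the region upstream of SP100 (0.938) stayed below 1.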

How the results depend on the processing

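Of 138 values recomputed under alternatives, 127 stayed close to the reported value (counts within 1.5 times, pileups and ratios within their counting interval) and 11 moved. Small counts reach that limit easily, and the SP cluster in sgFLI1 went from 9 to 6 peaks at −log10 q of at least 10. All 11 that moved were counts of peaks or regions. The 32 promoter pileups and 16 promoter ratios could hardly move. Their alternatives returned the same peaks or changed the values little beside the counting intervals. With −log10 q of at least 10, the SP cluster held 5 peaks in WT and 5 in sgFLI1-IFN-γ and PML held 2 in WT-IFN-γ. Gained regions in WT became 2, of which 1 had no sgFLI1-IFN-γ peak, lost regions in WT became 2, and WT-IFN-γ regions without an sgFLI1-IFN-γ peak became 1. With 3 kb upstream, and with the gene body alone, 1 region was lost in the knockout and 1 WT-IFN-γ region lacked an sgFLI1-IFN-γ peak, in place of 2 each. All 16 promoter ratios with IFN-γ recomputed after the data were seen (centred on the median, or from tags above the local background) stayed within their counting intervals. Depth limits the weak peaks, since below 7 to 8 tags no summit was listed in any library.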
